A study of Mus musculus with 6 samples.

Results

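The 8 transcription factors known from the intestinal epithelium, Cdx1, Cdx2, Elf3, Klf5, Gata6, Atoh1, Spdef and Ehf, were examined in cancer-associated fibroblasts (CAFs) sorted from mouse colonic adenomas. They were taken by gene symbol from the deposited table of 49548 genes, in which each of the 8 symbols had 1 row. The 8 were chosen with earlier results of these data known. The mice carried Col6a1-cre and the Rosa26-mTmG reporter, which makes cells Tomato-positive until Cre switches them, and their descendants, to GFP. All were on the C57/BL6 strain and had received AOM, a carcinogen, and DSS, which injures the colon, as young adults. After exclusion of cells stained for CD45, CD31, Ter119 or EpCAM, GFP+ cells were sorted as Col6a1+ CAFs and Tomato+ cells as Col6a1- CAFs, with 3 libraries of each, and each library came from the pooled tumors of several mice. GFP thus marks a Cre lineage, not a single cell type: it includes pericytes as well as fibroblasts with high PDGFRa, whereas trophocytes and fibroblasts with low PDGFRa are together in the Tomato+ sort. By the sort, the samples thus compare subsets of the tumor stroma, and neither holds a sorted epithelial population. Epithelial transcripts were nonetheless found in all of the libraries, as given below.

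In the gut, these factors are known mainly, but not solely, from epithelial cells. CDX1 and CDX2 are homeobox factors that give intestinal epithelium its regional identity, and KLF5 and GATA6 act in the proliferating crypt. ELF3, EHF and SPDEF belong to the epithelial branch of the ETS family, of which SPDEF acts below ATOH1, the factor that commits progenitors to the secretory lineage of goblet and Paneth cells.

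The promoters of an ETS factor that differed between the subsets, Elf3, and of a secretory factor near the detection limit, Spdef, are shown to place the regulatory letters known for this network. Both are RefSeq promoters on GRCm38.p6, the patch release of mm10, from 250 bases before to 50 bases after the start that RefSeq gives, which for Elf3 lies 96 bases inside the gene as deposited. Capitals mark matches on either strand to letters known for each family. CDX factors were searched by TTTAT. The letters taken for ETS factors were AGGAAG. For GATA factors the search used AGATAA. KLF factors were searched by GGGNGG. No 2 of the matches shown overlap. Cdx2 and Atoh1 also had an entry, so 4 of the 8 factors matched the promoter table.
Elf3, chr1:135258423-135258722, minus strand: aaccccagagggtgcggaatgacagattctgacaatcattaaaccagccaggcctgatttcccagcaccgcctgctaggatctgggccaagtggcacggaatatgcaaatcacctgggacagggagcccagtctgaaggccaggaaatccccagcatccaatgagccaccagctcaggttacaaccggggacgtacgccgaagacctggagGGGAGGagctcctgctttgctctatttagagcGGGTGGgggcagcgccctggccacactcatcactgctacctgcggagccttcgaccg
Spdef, chr17:27728902-27729201, minus strand: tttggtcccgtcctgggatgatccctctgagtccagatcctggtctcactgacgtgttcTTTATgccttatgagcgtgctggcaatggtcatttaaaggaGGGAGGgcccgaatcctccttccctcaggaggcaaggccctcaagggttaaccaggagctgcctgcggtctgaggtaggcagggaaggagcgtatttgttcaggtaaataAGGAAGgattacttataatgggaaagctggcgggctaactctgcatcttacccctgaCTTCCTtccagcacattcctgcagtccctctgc
The Elf3 window held 2 KLF matches and 0 matches to the CDX, ETS or GATA letters. The Spdef window held 1 CDX match, 2 ETS matches and 1 KLF match. The E-box CANNTG, the kind of site that ATOH1 binds, was found 2 times in the Elf3 window and 0 times in the Spdef window, and is not in capitals. Some of these letters are frequent in any promoter: among 32851 promoters of the same length, 40.0% held the CDX letters, 35.4% the ETS letters, 11.2% the GATA letters, 72.3% an E-box and 68.6% the KLF letters. The matches describe these windows and are not binding sites measured here.

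Values are the authors' normalized counts, that is, the reads of a gene adjusted for differences between libraries, in 3′ mRNA sequencing, which reads 1 end of each transcript. Their sums lay between 3039152 and 3425249 per library. Col6a1 itself had between 861 and 1941 normalized counts in Col6a1+ CAFs and between 102 and 321 in Col6a1- CAFs, in the direction of the labels (limma adjusted p = 0.00613). Fibroblast markers summed to between 40288 and 47054 in Col6a1+ CAFs and between 7199 and 14590 in Col6a1- CAFs, with 5 of 8 called higher in Col6a1+ CAFs, and 8 of 8 mural markers passed the test as higher in Col6a1+ CAFs. Ptprc, the gene of CD45, stayed between 0 and 2 normalized counts in Col6a1+ CAFs and between 3 and 8 in Col6a1- CAFs. Epcam, the gene of the epithelial sort marker, had 1074, 884 and 615 normalized counts in Col6a1+ replicates 1 to 3 and 3107, 4129 and 3730 in Col6a1- replicates 1 to 3. Epithelial transcripts were therefore present in all 6 libraries although EpCAM+ cells had been gated out. The 15 epithelial markers read below summed to between 6688 and 9161 in Col6a1+ CAFs and between 28427 and 46316 in Col6a1- CAFs. In Col6a1- CAFs that sum thus exceeded the sum of the fibroblast markers, whereas in Col6a1+ CAFs it was lower. Sums of marker counts do not give shares of cells. Col6a1+ replicate 1 had 14530 genes with at least 1 normalized count, against 18770 to 20511 in the other libraries.

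All 8 factors had lower mean log2 values in Col6a1+ than in Col6a1- CAFs, and 3 of them, Cdx1, Elf3 and Ehf, passed the test. The means of these 3 over the libraries were 5.64-, 5.07- and 10.1-fold lower in Col6a1+ CAFs. The 3 calls came from a fit that did not pair same-numbered libraries. With the replicate number as a block, 0 of the 8 factors and 0 genes of the table were called. On the 13515 genes averaging 10 or more normalized counts, that block called 871 genes lower, among them 4 of the 8. Atoh1 and Spdef averaged less and were not in that fit. Across the table, limma called 1.96% of the 26402 genes tested lower in Col6a1+ CAFs and 2.66% higher, at an adjusted p under 0.05. None of the 8 factors was called higher (0 at an unadjusted p under 0.05 in this fit or with limma-voom). The looser rule of an unadjusted p under 0.05 and a log2 fold change under -1 also took 3 of the 8, against 8.61% of all genes. In 4 factors, Cdx1, Elf3, Gata6 and Ehf, every Col6a1+ library lay below every Col6a1- library, as in 11.6% of the genes tested. The median log2 fold change of the 8 factors was -2.06, whereas that of all genes tested was -0.27. In bulk samples such as these, fewer cells of a type and less RNA per cell cannot be told apart.

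**Figure D1:**
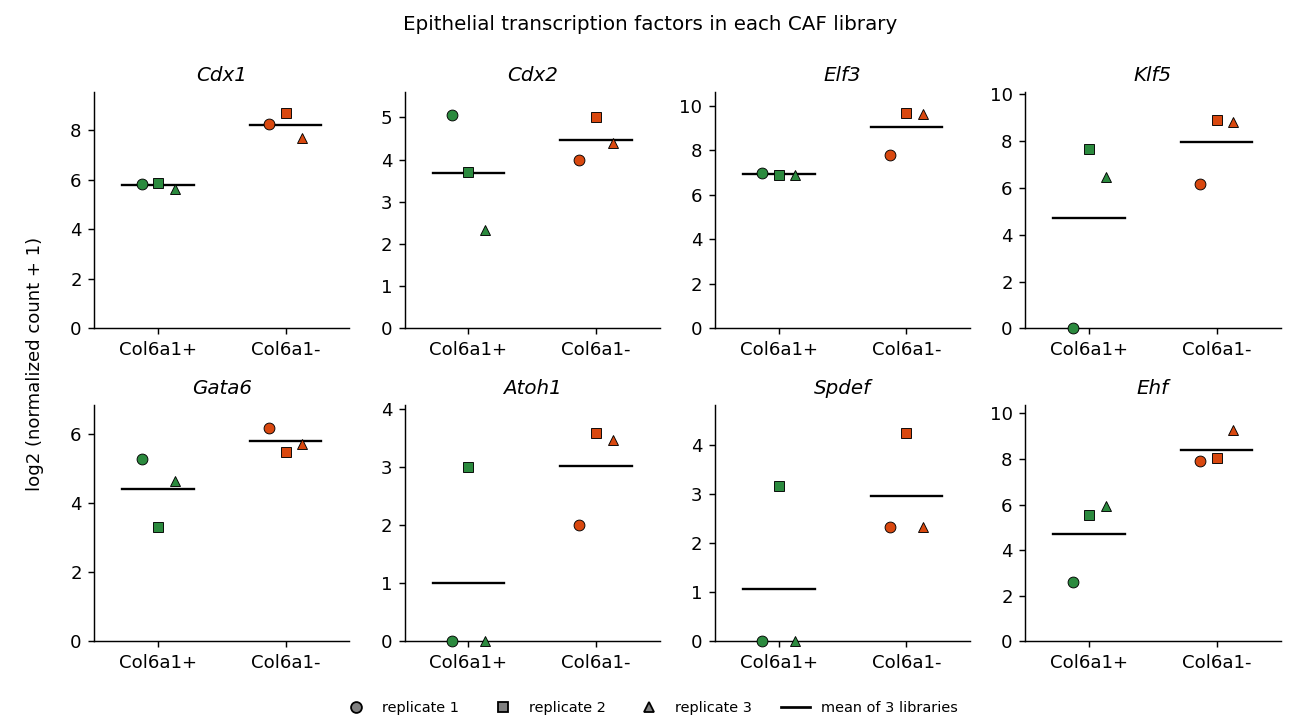
The 8 panels show log2(normalized count + 1) of each factor in 3 Col6a1+ and 3 Col6a1- CAF libraries, with symbols for the replicate numbers and a line at the group mean. Cdx1, Elf3, Gata6 and Ehf show no overlap between the subsets, whereas Klf5, Atoh1 and Spdef include libraries at 0.

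Cdx1 (ENSMUSG00000024619, mm10 chromosome 18 from 61018862 to 61036199, minus strand) is a homeobox activator of intestinal differentiation genes. It had 55, 58 and 49 normalized counts in Col6a1+ replicates 1 to 3 and 303, 407 and 203 in Col6a1- replicates 1 to 3. The Col6a1+ libraries lay close together, and even the lowest Col6a1- library was well above them. The means were 54.0 ± 4.58 in Col6a1+ and 304 ± 102 in Col6a1- CAFs (SD, n = 3 each). Cdx1 fell by 2.42 on the log2 scale in Col6a1+ CAFs (SE 0.37, limma adjusted p = 0.00582). When same-numbered libraries were paired by a block, its adjusted p was 0.0612 over all genes tested and 0.00396 over the genes averaging 10 or more normalized counts. It was the only one of the 8 factors called without Col6a1- replicate 3 (adjusted p = 0.0367), and leaving out any other library raised it to between 0.0587 and 0.149.

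Its paralog Cdx2 (ENSMUSG00000029646, chromosome 5 from 147300805 to 147307270, minus strand), the factor needed to specify intestinal epithelium, overlapped between the subsets and did not pass the test. Its normalized counts were 32, 12 and 4 in the Col6a1+ replicates and 15, 31 and 20 in the Col6a1- replicates. The highest and the lowest of the 6 libraries were both Col6a1+ CAFs. The means were 16.0 ± 14.4 and 22.0 ± 8.19 (SD, n = 3 each), with a log2 fold change of -0.78 (SE 0.86, limma adjusted p = 0.642). The log2 ratio of Cdx1 to Cdx2 within a library was 0.76, 2.18 and 3.32 in Col6a1+ CAFs and 4.25, 3.67 and 3.28 in Col6a1- CAFs. The ratio was thus lower in Col6a1+ replicates 1 and 2 than in any Col6a1- library but overlapped in replicate 3, and the difference of -1.64 gave p = 0.2 in a two-sided exact permutation test, which cannot go below 0.1 with 3 libraries against 3. The decrease of Cdx1 was therefore not shown to differ from that of Cdx2.

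Elf3 (ENSMUSG00000003051, chromosome 1 from 135253575 to 135258568, minus strand) is an ETS factor of differentiating epithelia. Its normalized counts were 127, 116 and 118 in Col6a1+ replicates 1 to 3 and 223, 821 and 786 in Col6a1- replicates 1 to 3. Col6a1+ CAFs were nearly constant, and Col6a1- replicate 1 lay between them and the other Col6a1- libraries. The means were 120.3 ± 5.86 and 610.0 ± 336 (SD, n = 3 each). Elf3 fell by 2.12 on the log2 scale (SE 0.47, limma adjusted p = 0.0313), with an adjusted p of 0.136 under the replicate block and 0.016 under that block on genes averaging 10 or more. With any 1 library left out, the log2 fold change lay between -2.73 and -1.79 and the call was lost (adjusted p between 0.0581 and 0.346), in fits of which 4 called 0 genes of the whole table. On genes averaging 10 or more, the call was kept without Col6a1+ replicate 1 (adjusted p = 0.0241) and without Col6a1- replicate 1 (adjusted p = 0.00857). The annotated antisense gene Gm26642 spans Elf3 on the opposite strand and had 0 normalized counts in all 6 libraries.

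Ehf (ENSMUSG00000012350, chromosome 2 from 103263433 to 103303278, minus strand), a close ETS relative of Elf3, was also called lower in Col6a1+ CAFs. It had 5, 46 and 60 normalized counts in the Col6a1+ replicates and 241, 262 and 613 in the Col6a1- replicates. All Col6a1- libraries were high, and Col6a1+ replicate 1, the library with the fewest detected genes, was the lowest. The means were 37.0 ± 28.6 and 372 ± 209 (SD, n = 3 each). Ehf fell by 3.72 on the log2 scale (SE 0.79, limma adjusted p = 0.0245). Its adjusted p was 0.089 under the replicate block, 0.00537 under that block on genes averaging 10 or more, and between 0.0773 and 0.382 with 1 library left out. Without Col6a1+ replicate 1 its log2 fold change was -2.66 (adjusted p = 0.0773). The log2 ratio of Ehf to Elf3 was -4.42, -1.32 and -0.96 in Col6a1+ CAFs and 0.11, -1.64 and -0.36 in Col6a1- CAFs, which overlapped (difference -1.6, two-sided exact permutation p = 0.3).

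Klf5 (ENSMUSG00000005148, chromosome 14 from 99298691 to 99313405, plus strand), a zinc finger factor of proliferating crypt cells, varied widely within both subsets. It had 0, 201 and 88 normalized counts in the Col6a1+ replicates and 71, 476 and 445 in the Col6a1- replicates. Replicate 1 was the lowest library of each subset, and Col6a1- replicate 1 lay below both other Col6a1+ libraries. The means were 96.3 ± 101 and 331 ± 225 (SD, n = 3 each). The log2 fold change of -3.24 (SE 1.61, limma adjusted p = 0.365) rested largely on the 0 of Col6a1+ replicate 1, without which it was -0.89. Under the replicate block on genes averaging 10 or more, Klf5 passed the test (adjusted p = 0.0405), whereas over all genes tested the block gave 0.228.

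Gata6 (ENSMUSG00000005836, chromosome 18 from 11052510 to 11085635, plus strand) is a zinc finger factor that binds GATA letters in crypt genes. Its normalized counts were 38, 9 and 24 in the Col6a1+ replicates and 72, 44 and 52 in the Col6a1- replicates. The subsets did not overlap, but the gap between Col6a1+ replicate 1 and Col6a1- replicate 2 was only a few counts. The means were 23.7 ± 14.5 and 56.0 ± 14.4 (SD, n = 3 each), with a log2 fold change of -1.39 (SE 0.63, limma adjusted p = 0.314). It passed the test in 1 alternative fit, without Col6a1+ replicate 1 on genes averaging 10 or more (log2 fold change -1.82, adjusted p = 0.0468). The noncoding gene 1010001N08Rik overlaps 58 bases of Gata6 on the opposite strand and had at most 1 normalized count in each library but Col6a1- replicate 3, where it had 20.

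Atoh1 (ENSMUSG00000073043, chromosome 6 from 64729125 to 64731245, plus strand), which starts the secretory programme, was near the detection limit. It had 0, 7 and 0 normalized counts in the Col6a1+ replicates and 3, 11 and 10 in the Col6a1- replicates. Spdef (ENSMUSG00000024215, chromosome 17 from 27714352 to 27728951, minus strand), which matures goblet and Paneth cells, had 0, 8 and 0 in the Col6a1+ replicates and 4, 18 and 4 in the Col6a1- replicates. Both factors were at 0 in Col6a1+ replicates 1 and 3, and their counts in Col6a1+ replicate 2 fell within the range of Col6a1- CAFs. A listed 0 was taken here to allow up to 3 counts, a floor that was set and not measured. That floor equals the Atoh1 value of Col6a1- replicate 1. The log2 fold changes were -2.01 for Atoh1 (SE 1.11, limma adjusted p = 0.434) and -1.91 for Spdef (SE 1.16, limma adjusted p = 0.475). A difference in these factors was not detected at such low counts, which does not show that the subsets are equal. Col6a1- libraries held all 8 factors at 1 normalized count or more, whereas Col6a1+ replicates 1 and 3 lacked 3 and 2 of them.

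Across the 6 libraries the summed normalized counts of the 8 factors were 257, 457 and 343 in Col6a1+ CAFs and 932, 2070 and 2133 in Col6a1- CAFs. Within each subset the sum was lowest in replicate 1. The mean of the factors' log2 values, each centred on its own mean, was -1.92, -0.24 and -1.14 in Col6a1+ CAFs and 0.45, 1.57 and 1.28 in Col6a1- CAFs. Among the 28 pairs of factors, Pearson's r over the 6 libraries was above 0.5 in 18 and below 0 in 4. It was highest for Atoh1 with Spdef (r = 0.93), then Klf5 with Ehf (r = 0.86) and Cdx1 with Elf3 (r = 0.83), and lowest for Cdx2 with Klf5 (r = -0.22). These correlations describe 6 libraries that fall into 2 subsets and share the depth of each library. Of 13509 other genes averaging 10 or more normalized counts, the 5 whose pattern was most like the mean of the factors were Dedd2 (r = 0.999), Tapbpl (r = 0.997), Snord118, Arl5b and Mvd (r = 0.996 each). They were chosen for this pattern, so their difference between the subsets is not tested.

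A further 30 transcription factors known from gut epithelium or its lineages were read from the same fit, and 29 of them had at least 1 normalized count. Of these, 27 had lower mean log2 values in Col6a1+ CAFs, and 4 were called lower and 0 higher (0 at an unadjusted p under 0.05). In 16 of the 29, every Col6a1+ library lay below every Col6a1- library, against 11.6% of genes tested. The median log2 fold change of the 29 was -2.16, close to that of the 8 factors. Foxa2, a forkhead factor of endodermal organs, had 20, 18 and 13 normalized counts in Col6a1+ CAFs and 364, 112 and 326 in Col6a1- CAFs (log2 fold change -3.75, SE 0.53, limma adjusted p = 0.00358). Ascl2, a factor of crypt stem cells, had 0, 3 and 0 against 36, 24 and 21 (limma adjusted p = 0.0437). Sox9, a factor of crypt cells, had 30, 484 and 337 against 782, 727 and 1206 and did not pass (limma adjusted p = 0.162). Creb3l1, at 122, 139 and 276 against 110, 107 and 57, was 1 of the 2 factors with higher mean log2 values in Col6a1+ CAFs (limma adjusted p = 0.337). With the replicate block 0 of the 30 were called (16 lower at an unadjusted p under 0.05), as for every gene of the table. On genes averaging 10 or more, which leaves out several of the 30, the block called 3 lower. The factors at 0 numbered 19, 7 and 10 of 30 in Col6a1+ replicates 1 to 3 and 4, 5 and 4 in Col6a1- replicates 1 to 3.

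**Figure D2:**
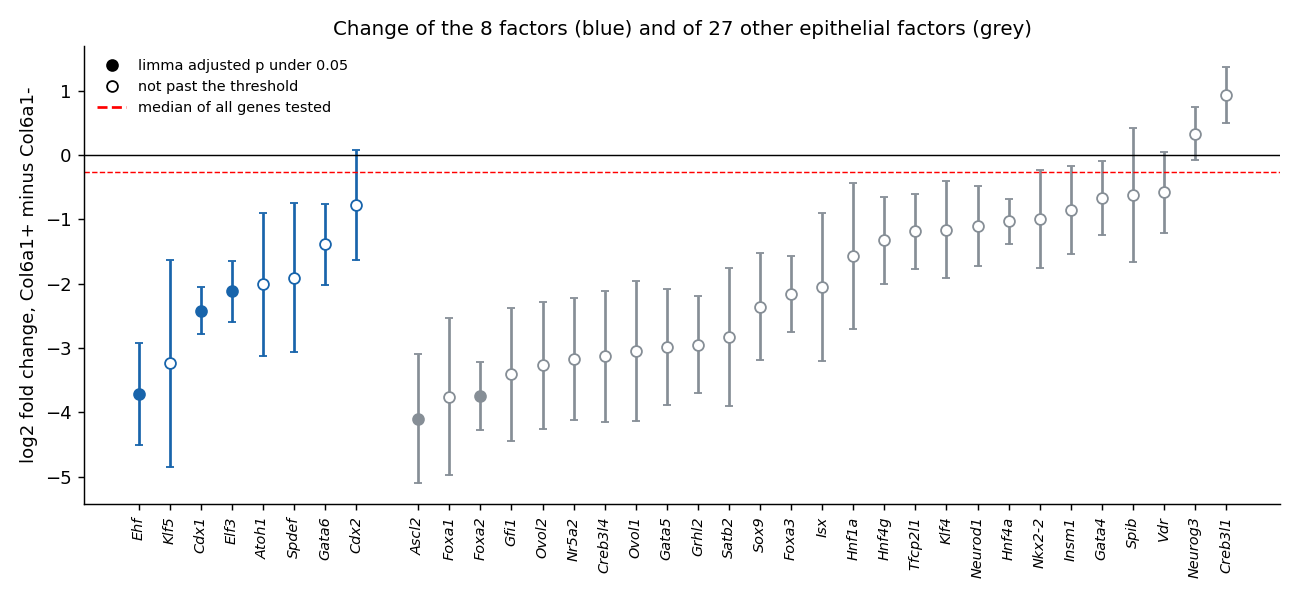
Points give the limma log2 fold change (Col6a1+ minus Col6a1- CAFs) of the 8 factors in blue and of 27 other epithelial factors in grey, bars give 1 SE, and filled points passed the test. The 8 factors lie between -3.72 and -0.78, all below the dashed median of all genes at -0.27, and the grey points reach from -4.1 to 0.93.

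Relatives of the 8 factors from the same protein families were split between both directions. Of 17 measured KLF, GATA, ELF, ATOH and CDX relatives, 9 had lower and 8 had zero or higher mean log2 values, 0 were called lower (4 under the looser rule) and 2 were called higher in Col6a1+ CAFs. Their median log2 fold change was -0.23, close to that of all genes. Atoh8, a relative of Atoh1, had 187, 171 and 140 normalized counts in Col6a1+ CAFs and 10, 18 and 31 in Col6a1- CAFs (log2 fold change 3.14, limma adjusted p = 0.00677). Klf2, a relative of Klf5 known from endothelial cells, had 352, 814 and 944 against 145, 257 and 169 (log2 fold change 1.80, limma adjusted p = 0.0342). Of genes tested, 7.91% were higher in Col6a1+ CAFs with no overlap, and 2 relatives, Atoh8 and Klf2, were of that kind. A further 3 of the 17 lay lower in Col6a1+ CAFs with no overlap, against 11.6% of genes tested. Klf4, which is both a relative of Klf5 and a factor of goblet cells, had 50, 554 and 218 against 198, 525 and 658 (limma adjusted p = 0.519). Among 15 transcription factors known from gut stroma, 5 were called higher and 0 lower in Col6a1+ CAFs (0 lower at an unadjusted p under 0.05), and the median of their log2 fold changes was 2.19. The called ones were Zeb2, Prrx1, Zeb1, Nkx2-3 and Foxf1. Of the 15, 14 had higher mean log2 values in Col6a1+ CAFs.

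Genes known as targets of the factors were read from lists for CDX and for Atoh1 and Spdef. These lists are not separate from the others. The CDX list shares 3 genes with the other epithelial factors and 4 with the epithelial markers read below. The secretory list shares 4 genes with the other epithelial factors, and Muc2 is on both target lists. Of 13 measured genes on a list of CDX targets, all 13 had lower mean log2 values in Col6a1+ CAFs, 3 were called lower, and the median log2 fold change was -1.38. The called genes were Gpa33, a membrane antigen of colon epithelium (log2 fold change -1.38, limma adjusted p = 0.0419), Gucy2c, the guanylin receptor (-2.03, limma adjusted p = 0.0425), and Muc2, the goblet cell mucin (-3.45, limma adjusted p = 0.0464). Krt20, a keratin of mature surface cells, had 438, 453 and 1094 normalized counts in Col6a1+ CAFs and 544, 1198 and 606 in Col6a1- CAFs and overlapped (limma adjusted p = 0.717). Of 14 secretory genes placed below Atoh1 and Spdef, 13 had lower mean log2 values, 3 were called lower, and the median log2 fold change was -2.96. The called genes were Muc2, Zg16 (-3.70 on the log2 scale, limma adjusted p = 0.0456) and Tff3 (-2.80, limma adjusted p = 0.0474), all secreted products of goblet cells. Muc2 had 38, 287 and 28 normalized counts in Col6a1+ CAFs and 471, 2177 and 414 in Col6a1- CAFs, with replicate 2 the highest of each subset, as for Atoh1 and Spdef. In Col6a1+ replicates 1 and 3, where Atoh1 and Spdef were listed at 0, Zg16 had 26 and 8 and Tff3 had 48 and 21.

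The epithelial marker genes moved in the same direction as the 8 factors. All 15 had lower mean log2 values in Col6a1+ CAFs, 9 were called lower, and 0 were called higher (0 of the 15 had a higher mean). Of the 15, 11 lay lower with no overlap, against 11.6% of genes tested. The summed normalized counts of the 15 were 6688, 9161 and 8885 in Col6a1+ CAFs and 28427, 46316 and 43512 in Col6a1- CAFs, a 4.72-fold difference of geometric means. The adhesion molecule Cdh1 had 2999, 2344 and 2580 against 10493, 15452 and 11963 (log2 fold change -2.25, limma adjusted p = 0.00212), the keratin Krt18 fell by 3.24 on the log2 scale (limma adjusted p = 0.000862) and Epcam fell by 2.12 (limma adjusted p = 0.0033). None of the 15 was at 0 in all 6 libraries, and Fabp2, a marker of absorptive cells of the small intestine, was at most at 8. The immune markers also moved, with summed normalized counts of 71 to 90 in Col6a1+ CAFs and 482 to 941 in Col6a1- CAFs and 2 of 13 measured rows called lower, the neutrophil genes S100a8 and S100a9. Of 10 endothelial markers, 8 had lower mean log2 values in Col6a1+ CAFs (median log2 fold change -1.21), among them Pecam1 with 0, 21 and 27 normalized counts against 13, 64 and 44, and 2 were called higher, Esam and Tie1. These 2 made up most of the summed endothelial counts of Col6a1+ CAFs, which were 1100 to 1449 against 194 to 383 in Col6a1- CAFs. Of the glial, erythroid and proliferation markers 0 were called (3 at an unadjusted p under 0.05, named after their values were seen: the glial Sox10, higher, and the proliferation genes Birc5 and Top2a, lower). The part of epithelial or other cells in the values of the 8 factors was not tested.

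**Figure D3:**
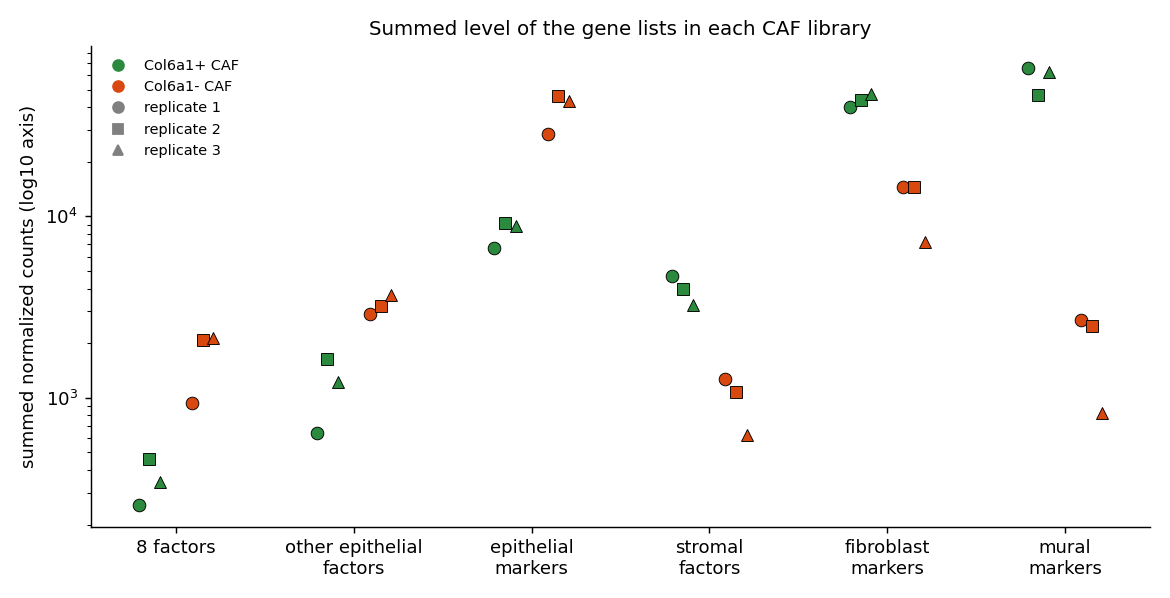
Points give the summed normalized counts of each gene list, on a log10 axis, in the 3 Col6a1+ and 3 Col6a1- CAF libraries. The 8 factors, the other epithelial factors and the epithelial markers are lower in all Col6a1+ libraries, whereas stromal factors, fibroblast markers and mural markers are higher.

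Set against the summed epithelial markers of the same library, none of the 8 factors separated the subsets. Of the 15 markers, Cdh1 and Cldn4 had the highest means in both subsets and so weigh most in the sum. Cldn4 had 571, 2270 and 1575 normalized counts in Col6a1+ CAFs and 7226, 11157 and 17117 in Col6a1- CAFs. How many of all genes overlap by such a ratio was not counted. Cdx1 had between 5.51 and 8.22 normalized counts per 1000 counts of the 15 summed markers in Col6a1+ CAFs and between 4.67 and 10.7 in Col6a1- CAFs. Elf3 had between 12.7 and 19.0 and between 7.84 and 18.1. Ehf had 0.748, 5.02 and 6.75 in the Col6a1+ replicates and 8.48, 5.66 and 14.1 in the Col6a1- replicates, which overlapped through Col6a1- replicate 2. The differences of the log2 ratios were -0.18 for Cdx1, 0.12 for Elf3 and -1.48 for Ehf, against fitted log2 fold changes of -2.42, -2.12 and -3.72 for the counts themselves. The difference of the log2 ratio was also positive for Cdx2 (1.46), Gata6 (0.85), Spdef (0.33) and Atoh1 (0.22), and was -1.01 for Klf5. Cdx2 and Gata6 had their highest ratio in Col6a1+ replicate 1. Klf5 ranged from 0 to 21.9 in Col6a1+ CAFs and from 2.5 to 10.3 in Col6a1- CAFs, Atoh1 from 0 to 0.764 and from 0.106 to 0.237, and Spdef from 0 to 0.873 and from 0.0919 to 0.389. In two-sided exact permutation tests of the 8 ratios, p lay between 0.2 (Ehf) and 0.9, with an adjusted p of 0.9 for all 8, in a design whose smallest p is 0.1. All 8 factors also overlapped when counted per 1000 counts of Epcam alone. With 3 libraries a subset these tests do not show that the ratios are equal.

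**Figure D4:**
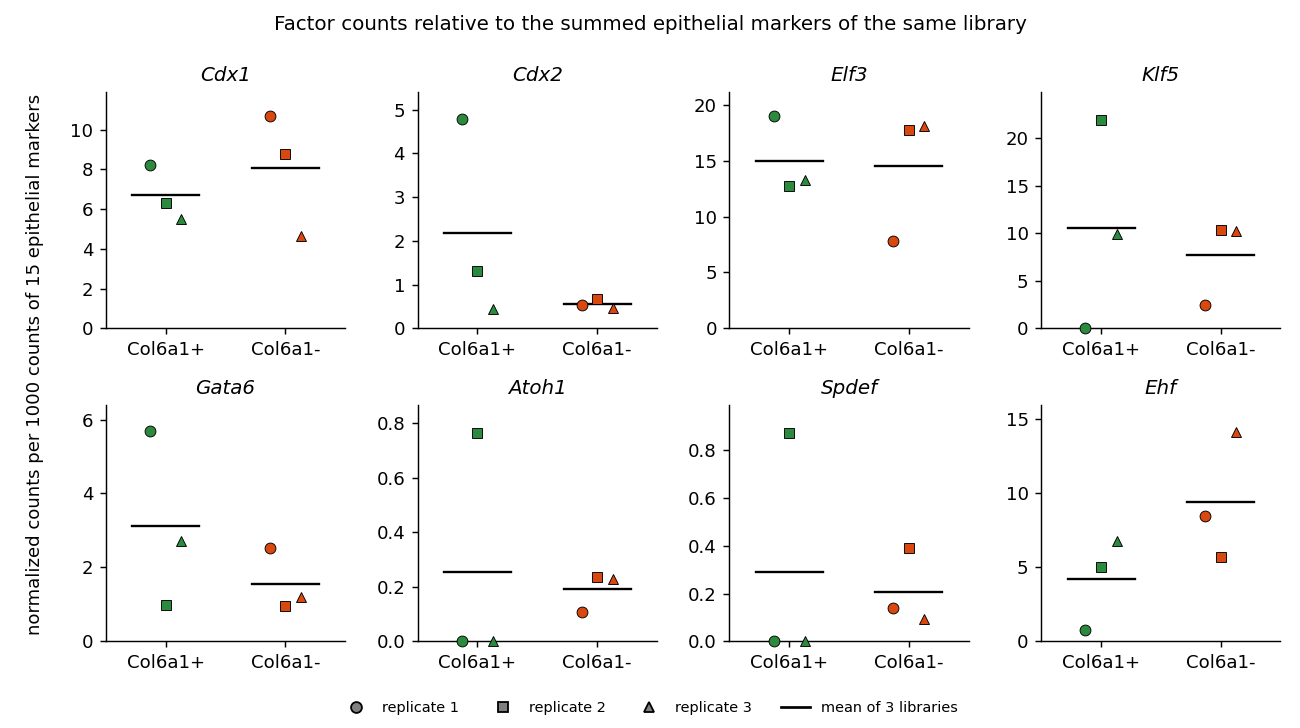
Each panel gives the normalized counts of a factor per 1000 summed counts of 15 epithelial markers in the same library, for 3 Col6a1+ and 3 Col6a1- CAF libraries, with a line at the group mean. The subsets overlap in all 8 panels, and Ehf ranges from 0.748 to 6.75 in Col6a1+ and from 5.66 to 14.1 in Col6a1- CAFs.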

How the data were processed

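RNA from 6 sorted CAF libraries was read by 3′ mRNA sequencing. The authors mapped reads to mm10 with TopHat2 and Bowtie2, and used GenomicRanges for counts per gene and DESeq for differential expression. The paper does not name the normalization. The authors deposited log2(normalized count + 1), from which 100.0% of values gave a whole normalized count within 0.001. These are not raw counts, so no count model was used. Whether counting used strand is not given in the sources used here. The authors' own fold changes and p-values and 6 further columns of per-sample values were not used. Here limma 3.58.1 in R 4.3.3 (variances moderated towards a trend on the mean, with 6.48 prior and 4 residual degrees of freedom) was fitted to the log2 values of the 26402 genes with at least 1 summed normalized count, with Benjamini-Hochberg adjustment and a threshold of 0.05. The pseudocount of 1 makes fold changes of low genes too small. Single values and ratios were compared with Python 3.11.15, pandas 2.3.3 and SciPy 1.17.1. The code was tested on simulated data.

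Groups and replicate numbers came from the labels. Deviations of same-numbered libraries from their group means correlated weakly over 13515 genes with a mean of at least 10 (r = 0.245, 0.125 and 0.144). Other pairs gave -0.245 to 0.15, the highest of which exceeded 0.125 and 0.144, and the values are not independent. The check thus does not settle whether same-numbered libraries belong together. The fit with the replicate number as a block is therefore given where it changed a call. The study describes 3 samples, each pooled from the tumors of several mice, from which both subsets were sorted. Same-numbered libraries may thus share a pool, but the labels do not say so. The fit without the block took the 6 libraries as separate, and its p-values set the group difference against the spread within each group. If pools are shared, the 6 libraries are not separate units. The members and lists were chosen with earlier results of these data known. Beside the 8 factors, Col6a1 and the genes of the sort markers, the text names from each list at most 6 called genes and the 3 with the highest mean, and the 5 genes most correlated with the factors. A further 2 of the other epithelial factors enter the counts but are not reported here, nor drawn. The alternatives were library size scaling, other filters, a pseudocount of 0.1, limma-voom, the block, and leaving out each library. Leaving out a library on genes with a mean of at least 10 was added after seeing the data.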

Additional observations from a re-analysis of the deposited data

How the results depend on the processing

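All 136 alternative values of the 8 factors' log2 fold changes were lower in Col6a1+ CAFs. Of these, 102 stayed on the same side of the threshold, 32 lost the call and 2 gained it. The calls depended on which genes were fitted. With no filter, 21 genes were called higher, 7 lower, and 0 of the 8 factors and 0 of the other epithelial factors were called (3 and 13 lower at an unadjusted p under 0.05). With a pseudocount of 0.1, 336 genes were called lower, 1 of the 8 factors (Cdx1) and 2 of the other factors. limma-voom called 1006 genes lower and 12 of the other factors. The looser rule gave 1607 genes higher, 2273 lower and 16 of the other factors. The cause of these changes was not tested.

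With the replicate block, 0 genes of the table were called higher and 0 lower by limma (1851 and 2567 at an unadjusted p under 0.05), and 0 of the 8 factors were called (6 lower at an unadjusted p under 0.05) and 0 of the other factors. On genes averaging 10 or more, the block gave 871 genes lower and 4 of the 8 factors. Atoh1 and Spdef averaged less and were in none of the fits on those genes. With each library left out in turn, 0 to 98 genes were called higher, 0 to 166 lower, 0 to 1 of the 8 factors and 0 to 2 of the other factors, and 0 genes of the table were called without Col6a1+ replicate 1, 2 or 3 or Col6a1- replicate 1. On genes averaging 10 or more, an alternative chosen after seeing the data, the genes called higher were 1078 without Col6a1+ replicate 1, 366 without Col6a1+ replicate 3, 454 without Col6a1- replicate 2 and 368 without Col6a1- replicate 3, and those called lower were 1119 and 323 without Col6a1+ replicates 1 and 3 and 248, 223 and 154 without Col6a1- replicates 1, 2 and 3. Of the 8 factors 4 were called without Col6a1+ replicate 1 and 1 without Col6a1- replicate 2 or 3, and of the other factors 14 without Col6a1+ replicate 1 and 2 without each Col6a1- library. In these 6 fits Cdx1 kept the call each time, Elf3 kept it without Col6a1+ replicate 1 or Col6a1- replicate 1, and Ehf kept it without each Col6a1+ library, while without Col6a1- replicates 1, 2 and 3 its adjusted p was 0.068, 0.0822 and 0.118. Counts under 10, as in Atoh1 and Spdef, limit what can be told apart.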
